A study of Mus musculus with 6 samples.

Results

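A set of 9 genes that mark primitive red blood cells were followed in presomitic mesoderm of mouse embryos with and without Nrarp. They were the embryonic globin genes Hba-x, Hbb-y and Hbb-bh1, the heme synthesis gene Alas2, the nuclear factor genes Hemgn, Gata1 and Klf1, the anion exchanger gene Slc4a1 and the erythropoietin receptor gene Epor. The list was drawn up as a gauge of blood in the dissected tissue. All 9 genes have a single probe that matches 1 gene, of 13840 genes with such a probe and 33012 probes in all. The embryos were at embryonic day 10.5, and came from crosses of heterozygous females with heterozygous males. Wild-type littermates were compared with Nrarp knockout embryos, in which LacZ stands in place of the Nrarp coding region in every cell of the embryo. There were 3 one-colour arrays per genotype, with replicate numbers 1 to 3, and 12 presomitic mesoderms were collected per genotype. How these were shared among the arrays was not stated, so a p-value here speaks to the variation among arrays alone, some of it perhaps technical.

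Primitive erythroid cells are the first red cells of the mouse embryo. They form in the yolk sac blood islands, enter the circulation as nucleated cells and mature there. They carry embryonic hemoglobins, whose chains include alpha-like zeta chains from Hba-x and beta-like chains from Hbb-y and Hbb-bh1. GATA1 and KLF1 are the transcription factors that switch on globin, heme and membrane genes in these cells, through GATA sites and CACC boxes. Presomitic mesoderm is not itself a blood-forming tissue.

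The sequences given here show where the letters of these 2 motifs lie in the members' promoters. Of the 9 genes, 7 had an entry in the RefSeq promoter table (build GRCm38.p6), namely Hba-x, Hbb-y, Alas2, Hemgn, Gata1, Klf1 and Epor. The 250 bases before the start were searched on both strands. AGATAA or TGATAA was found in 6 of the 7 (all but Gata1), against 16.6% of the 32851 promoters in the table. CACCC was found in 6 of the 7 (all but Hemgn), against 52.0%. The longer form CCNCNCCC, which can overlap CACCC, was found in 5 of the 7 against 45.9%. TATAAA was found in 3 of the 7 against 12.4%, and CANNTG in 5 of the 7 against 66.2%. The 6 promoters with a GATA match are printed from 5′ to 3′ up to the base before the start, as 250 bases for Hba-x and Hbb-y, slightly over 120 for Epor and 120 for the other 3. Capitals mark the GATA matches and the CACCC matches on either strand, and a match is a description of letters only.
Hba-x (chr11:32276350-32276599, plus strand): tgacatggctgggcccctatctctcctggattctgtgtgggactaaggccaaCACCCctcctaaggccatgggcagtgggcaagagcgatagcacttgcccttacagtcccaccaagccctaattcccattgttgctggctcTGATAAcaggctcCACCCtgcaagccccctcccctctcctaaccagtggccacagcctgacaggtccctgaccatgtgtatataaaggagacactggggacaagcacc
Hbb-y (chr7:103853208-103853457, minus strand): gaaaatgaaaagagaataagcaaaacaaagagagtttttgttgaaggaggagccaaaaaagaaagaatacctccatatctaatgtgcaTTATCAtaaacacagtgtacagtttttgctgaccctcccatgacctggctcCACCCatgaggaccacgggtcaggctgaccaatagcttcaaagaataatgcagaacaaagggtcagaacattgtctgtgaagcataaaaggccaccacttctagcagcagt
Alas2 (chrX:150547297-150547416, plus strand): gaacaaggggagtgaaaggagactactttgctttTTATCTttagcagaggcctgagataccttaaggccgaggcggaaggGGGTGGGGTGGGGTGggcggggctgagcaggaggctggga
Hemgn (chr4:46404184-46404303, minus strand): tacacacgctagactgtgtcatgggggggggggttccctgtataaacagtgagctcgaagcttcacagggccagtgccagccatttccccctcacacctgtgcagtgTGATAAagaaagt
Klf1 (chr8:84901862-84901981, plus strand): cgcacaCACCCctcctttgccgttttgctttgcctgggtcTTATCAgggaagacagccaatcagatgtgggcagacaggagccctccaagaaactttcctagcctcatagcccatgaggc
Epor (chr9:21963577-21963701, minus strand): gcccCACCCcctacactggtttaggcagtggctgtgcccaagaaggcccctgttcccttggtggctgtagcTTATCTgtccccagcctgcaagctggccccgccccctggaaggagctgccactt
The GATA match began 108 bases before the start in Hba-x, 162 in Hbb-y, 86 in Alas2, 13 in Hemgn, 80 in Klf1 and 54 in Epor. Hba-x also had a TATAAA match 28 bases before its start.

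Intensities had been scaled by the authors so that array medians lay between 0.981 and 0.993. With so few arrays, precision is limited throughout. Both replicate 1 arrays had a wider range than the other 4, with 75th percentiles of 8.88 and 9.71 against 4.90 to 5.88, and their brightest probes read 3282 and 2788 against 4954 to 5630. The targeted gene checked the labels as far as its probe lies in the replaced part, which was not stated: Nrarp read 318, 429 and 448 on the wild-type arrays, against 14.3, 42.5 and 23.3 for the knockouts, or 6.14% of wild type, a difference with a limma adjusted p of 0.428 without a replicate term and 0.000420 with the replicate number as a block. Presomitic markers were present, with Tbx6 at 416 to 745 (wild type) and 487 to 848 (knockout). Of the erythroid list, 8 of the 9 genes lay above the array median on all 6 arrays, 7 of them above the 75th percentile. The remaining gene of these 8, Gata1, lay between percentiles 55.8 and 66.9. A reading above the median describes brightness only, and whether this RNA came from red cells was not tested. Slc4a1 lay below the median on all 6 arrays.

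The globin probes were bright on every array. Hba-x, the alpha-like embryonic globin, read 1419, 3438 and 3364 on wild-type arrays 1 to 3 and 1472, 3737 and 3350 on knockout arrays 1 to 3. Its low readings were those of replicate 1 in both genotypes, and the genotypes overlapped throughout. Hbb-y, the epsilon-y chain, read 1915, 930 and 1130 on the wild-type arrays, against 1456, 1040 and 920 for the knockouts. Here replicate 1 held the high reading of each genotype. Hbb-bh1, the neighbour of Hbb-y on chromosome 7, read 2329, 2238 and 3108 on the wild-type arrays, against 1896, 2886 and 2488 for the knockouts, with no such split by replicate. The log2 difference, knockout minus wild type, was 0.06 for Hba-x (95% interval of the fold 0.500 to 2.16), -0.18 for Hbb-y (log2 interval -0.89 to 0.54) and -0.08 for Hbb-bh1 (-0.59 to 0.42). With the replicate number as a block the intervals were narrower, at -0.14 to 0.25 for Hba-x (fold 0.906 to 1.19), -0.45 to 0.09 for Hbb-y and -0.40 to 0.23 for Hbb-bh1. The embryonic beta-like genes resemble each other in sequence, and how far their probes tell them apart was not stated.

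Alas2, the erythroid form of the first enzyme of heme synthesis, read 83.4, 58.1 and 73.0 on the wild-type arrays, against 53.7, 65.1 and 60.4 for the knockouts. The highest readings were those of wild-type replicates 1 and 3, while wild-type replicate 2 lay among the knockouts, so the genotypes overlapped. Its log2 difference was -0.25 (95% interval -0.85 to 0.36), with means of 71.5 ± 12.7 (SD, n = 3) and 59.7 ± 5.74 (SD, n = 3).

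Among the nuclear factors, Klf1 read 28.7, 9.77 and 9.16 on the wild-type arrays, against 14.4, 8.65 and 8.05 for the knockouts. Wild-type replicate 1 was far above the other 5 arrays, and the other 2 wild-type arrays lay below knockout replicate 1. The log2 difference was -0.45 (95% interval -1.66 to 0.75). Without wild-type replicate 1, but with knockout replicate 1 kept, it was 0.08, and with replicates 2 and 3 alone it was -0.18. Gata1, the master regulator of the lineage, was a dim probe that read 3.85, 1.35 and 2.18 on the wild-type arrays, against 2.36, 1.27 and 1.49 for the knockouts, a log2 difference of -0.45 (-1.66 to 0.77). Without wild-type replicate 1 the Gata1 difference was -0.06, and with replicates 2 and 3 alone it was -0.32. Hemgn, a nuclear protein of blood precursors that acts downstream of GATA1, read 19.7, 13.0 and 14.0 on the wild-type arrays, against 13.2, 10.4 and 13.1 for the knockouts. Its log2 difference was -0.33 (-1.08 to 0.42), and the knockout arrays overlapped the wild-type range only just, at 13.2 and 13.1 against 13.0.

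At the cell surface, Epor, the receptor through which erythropoietin keeps erythroid cells alive, read 19.7, 8.32 and 7.87 on the wild-type arrays, against 16.3, 9.45 and 8.91 for the knockouts. Replicate 1 was high in both genotypes, and the difference was 0.03 (95% interval -1.06 to 1.12). Slc4a1, the chloride and bicarbonate exchanger of the red cell membrane, read 0.451, 0.686 and 0.420 on the wild-type arrays, against 0.569, 0.829 and 0.586 for the knockouts. Its difference of 0.36 (-0.72 to 1.44) rests on readings below the array median, and it was the 1 member with positive differences in all 3 replicate pairs.

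**Figure D1:**
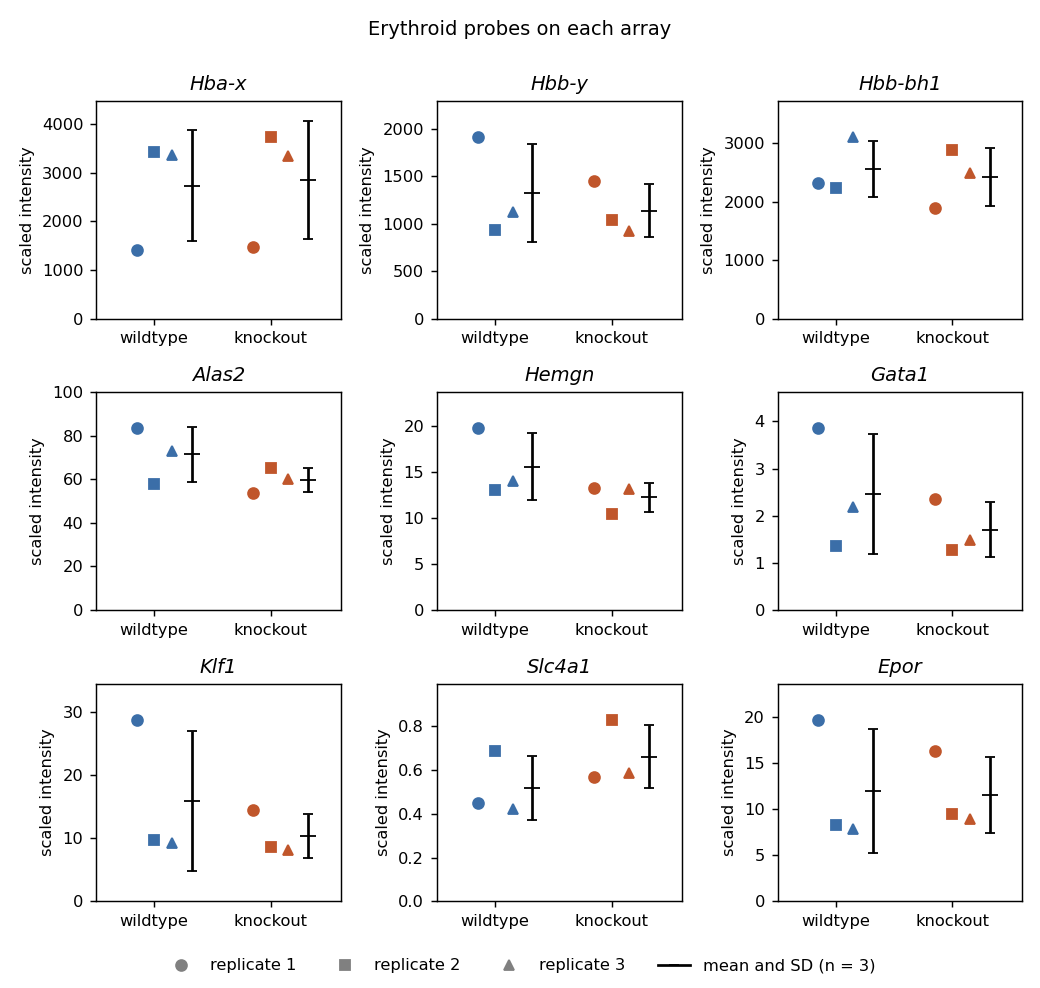
Scaled intensity (linear axis from 0) of the 9 erythroid probes on each array, wild type in blue and knockout in orange, with circles, squares and triangles for replicates 1, 2 and 3 and bars for the mean and SD of 3 arrays. The genotypes overlap in every panel, and wild-type replicate 1 is the highest of the 6 arrays for Hbb-y, Alas2, Hemgn, Gata1, Klf1 and Epor.

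None of the 9 genes passed the test between genotypes. In limma without a replicate term, 0 of 33012 probes (0%) had an adjusted p under 0.05, and 217 (0.657%) had an unadjusted p under 0.05, which 0 of the 9 genes reached. The adjusted p was 1.00 for each of the 9. With the replicate number as a block, 2 probes (0.00606%) passed, those of Nrarp and of Hes5, a Notch target gene named here after its value was seen, and 1238 (3.75%, 1.99% with the knockout lower) had an unadjusted p under 0.05, again with 0 of the 9 genes in either count. The exact permutation test of 3 against 3 arrays, which cannot go below 0.1, gave two-sided p-values from 0.300 (Alas2, Hemgn and Slc4a1) to 1.00 (Epor). In 0 of the 9 genes did the genotypes separate, where 3.78% of all probes did (2.04% with the knockout arrays above and 1.74% with them below). The blocked intervals of the log2 difference also span 0 for all 9 genes, but only just for Klf1 (-0.92 to 0.01) and Hemgn (-0.71 to 0.04). They were -0.60 to 0.10 for Alas2 and -1.19 to 0.30 for Gata1. For Epor the blocked interval was -0.37 to 0.43, and for Slc4a1 -0.65 to 1.38. The lack of a call does not show that erythroid RNA was equal. In RNA from whole tissue, fewer erythroid cells and less RNA per cell cannot be told apart.

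The median log2 difference of the 9 genes was -0.18, beside -0.01 over all probes, and 6 of the 9 differences were negative, where 50.9% of all probes and 51.9% of those above the median level were. Within replicate 1 the median of the 9 was -0.39, within replicate 2 it was 0.16 and within replicate 3 it was -0.19. Over all probes these medians were 0.07, 0.00 and -0.03. Negative in all 3 pairs were Hemgn (-0.58, -0.32 and -0.09), Gata1 (-0.71, -0.08 and -0.55) and Klf1 (0.501-fold in replicate 1, then -0.18 and -0.19 on the log2 scale), which is 3 of 9 genes where 10.5% of all probes were. Positive in all 3 was Slc4a1 (0.34, 0.27 and 0.48), 1 of 9 where 13.2% of all probes were. The globins Hbb-y (-0.39, 0.16 and -0.30) and Hbb-bh1 (-0.30, 0.37 and -0.32), and Alas2 (-0.64, 0.16 and -0.27), were negative within replicates 1 and 3 and positive within replicate 2. Hba-x (0.05, 0.12 and -0.01) stayed near 0 in each pair.

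**Figure D2:**
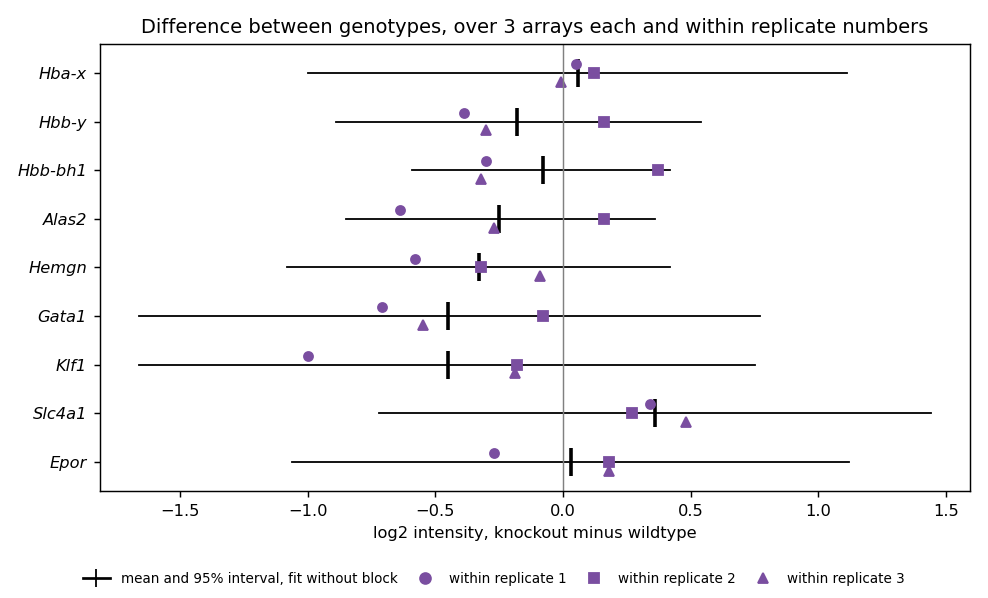
Log2 difference, knockout minus wild type, for each erythroid probe. Black ticks and lines give the mean and its 95% interval from the limma fit without a block, and purple symbols give the difference within each replicate number. All 9 intervals span 0, and Klf1 within replicate 1 (0.501-fold) is the most negative single pair.

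Among these genes, differences beyond 1.5-fold were seen only in the replicate 1 pair. Within it, 7 of the 9 genes were lower in the knockout, all but Hba-x and Slc4a1, while 43.1% of all probes and 29.1% of probes above the median level were lower. By more than 1.5-fold, Klf1, Gata1 and Alas2 were lower, at 0.501, 0.613 and 0.644 of the wild-type reading. That is 3 of 9 genes, where 16.5% of all probes and 4.13% of probes above the median level were lower by as much. Within replicate 2, 3 of the 9 genes were lower (Hemgn, Gata1 and Klf1), where 49.8% of all probes and 57.7% of those above the median level were. Within replicate 3, 7 of the 9 were lower (all but Slc4a1 and Epor), where 52.0% and 54.1% were. Within replicates 2 and 3, 0 of the 9 genes differed by more than 1.5-fold in either direction. Of all probes, 18.3% were lower and 19.8% higher by as much in replicate 2, and 18.5% and 16.3% in replicate 3. Of probes above the median level, 18.1% were lower by as much in replicate 2 and 14.8% in replicate 3. A pair is 1 array against 1 and carries no test. The high readings come from wild-type replicate 1, which was the highest of the 6 arrays for 6 of the 9 genes, where 9.08% of all probes and 11.1% of probes above the median level had it highest. Without that array 5 of the 9 differences were negative, with a median of -0.06.

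**Figure D3:**
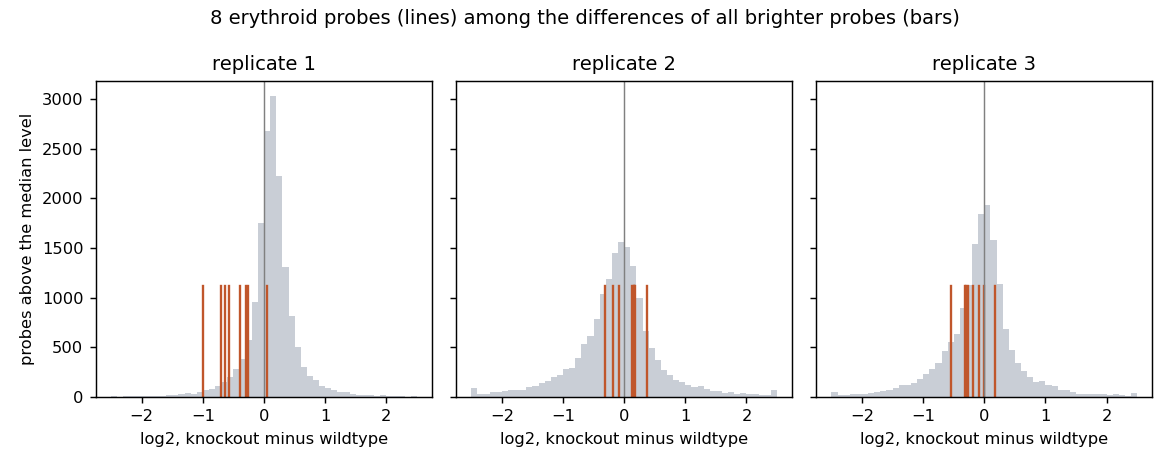
Differences within each replicate number (log2, knockout minus wild type) of the 16506 probes above the median level, as grey bars with values beyond 2.5 gathered at the ends, and of the 8 erythroid probes among them, as orange lines. In replicate 1, 7 of the 8 lines lie below 0 while the grey bars are shifted slightly above it, and in replicates 2 and 3 the lines lie inside the bulk of the bars.

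Several of the 9 genes differed by replicate number. The limma F test of the replicate number called 9166 probes (27.8%, made up of 17.5% higher and 10.2% lower in replicate 1), and 46.8% of those above the median level. It called 4 of the 9 genes, a share near that of probes of like brightness. Hbb-y (adjusted p = 0.00674), Klf1 (0.00916) and Epor (0.00759) were higher in replicate 1 than in replicates 2 and 3, by 1.67, 2.28 and 2.08-fold. Hba-x went the other way, at 0.417 of the level in replicates 2 and 3 (adjusted p = 9.13e-05). Gata1 (adjusted p = 0.112), Hemgn (0.225), Hbb-bh1 (0.200), Alas2 (0.837) and Slc4a1 (0.594) did not pass. Both replicate 1 arrays lay above the other 4 for Hbb-y, Gata1, Klf1 and Epor, as for 25.2% of all probes, and below them for Hba-x, as for 34.4%. The F test calls depended on the model: 0 members passed without an intensity trend in the variance prior. After quantile normalization 2 passed, Hba-x and Hbb-y, and with centring on 75th percentiles 3 passed, Hba-x, Hbb-bh1 and Alas2.

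The embryonic globin probes did not run together. Across the 6 arrays the Pearson correlation of log2 values was -0.92 between Hba-x and Hbb-y, and 0.68 between Hba-x and Hbb-bh1. Hba-a1, an alpha globin gene next to Hba-x on chromosome 11, had a course closer to that of Hbb-y. It read 1751, 695 and 820 on the wild-type arrays, against 1361, 740 and 594 for the knockouts. Hbb-y, Gata1, Klf1 and Epor correlated with one another at 0.80 to 0.95, and Hemgn with Gata1 at 0.89. These correlations are over 6 arrays that fall into replicate 1 and the rest. At the bright end of the arrays, the 331 probes in the top 1% had a median log2 difference of -0.29 between replicate 1 and the others, and 55.0% of them were lower on both replicate 1 arrays than on all other 4, while 24.2% were higher on both. The part of this in the low Hba-x readings was not tested.

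**Figure D4:**
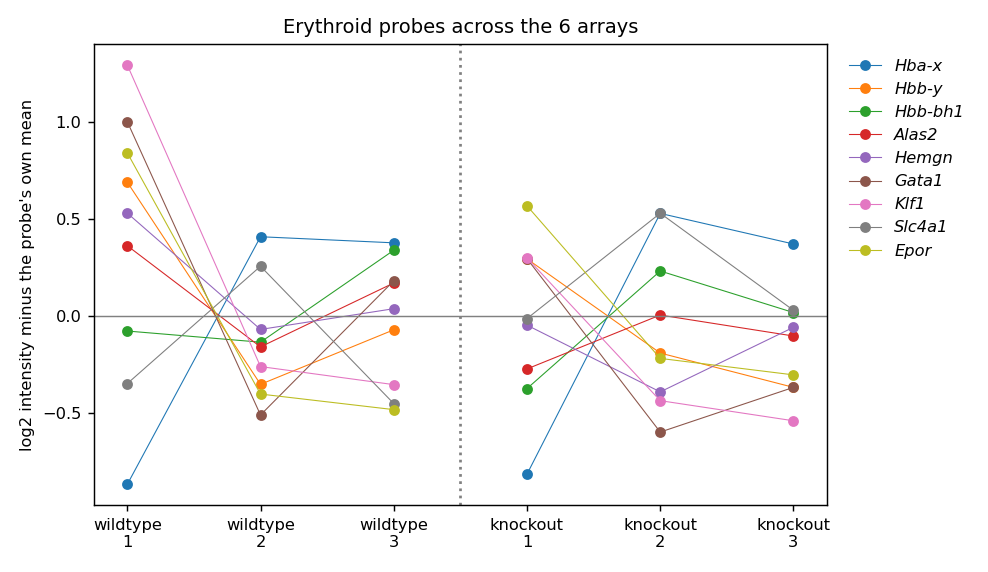
Log2 intensity of each erythroid probe minus its own mean over the 6 arrays, with thin lines only to guide the eye between arrays, which have no order. Klf1, Gata1, Epor and Hbb-y are high on both replicate 1 arrays and highest on that of wild type, whereas Hba-x is lowest there.

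The wider erythroid programme gave no call either. The 6 lists hold 81 measured genes besides the 9, of which 0 passed the limma test with or without the block, and 53 had negative differences with a median of -0.16. Without wild-type replicate 1, 34 of the 81 were negative and the median was 0.03. That fit kept knockout replicate 1, so genotype and replicate number were out of balance. With replicates 2 and 3 alone, 49 of the 81 were negative with a median of -0.07, where 51.9% of all probes were negative. Among 5 measured globins 4 differences were negative (median -0.18). Hbq1a, the theta globin gene, read 75.2, 28.3 and 59.6 on the wild-type arrays, against 42.2, 26.2 and 22.1 for the knockouts (log2 difference -0.79, limma adjusted p = 1.00), with its lowest wild-type reading inside the knockout range. Of 16 genes of heme synthesis and iron uptake, 10 were negative (median -0.09). Cpox, which acts late in heme synthesis, read 68.1, 63.3 and 68.9 against 47.1, 48.3 and 67.4 (-0.32). Abcb10, a mitochondrial transporter of erythroid cells, differed by -0.13, Trf by -0.62 and Hmox1 by 0.13.

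Of 18 genes of the red cell membrane and its skeleton, 10 were negative (median -0.03). Rhag, which carries the Rh complex, read 6.92, 3.51 and 1.89 on the wild-type arrays, against 3.07, 2.27 and 2.64 for the knockouts (-0.44). Rhd differed by -0.71, and the Kell antigen gene Kel by -0.56. Add1 went the other way, by 0.79, and was positive in all 3 pairs (0.32, 0.47 and 1.59). Of 17 erythroid transcription factors 15 were negative (median -0.17), and without wild-type replicate 1 this was 11 (median -0.15). Besides Gata1, Klf1 and Hemgn they included Gfi1b, a repressor that acts with GATA1, at -1.01, and Tal1 at -0.34. Gata2, the factor that GATA1 replaces as erythroid cells mature, differed by -0.83, which came from 1 wild-type array at 12.7 while the other 5 read 1.88 to 2.95. Of 15 genes of erythropoietin and stem cell factor signalling 8 were negative (median -0.11), with Kit, the stem cell factor receptor gene, at -0.40 and its ligand gene Kitl at -1.36. Of 19 red cell enzymes and late genes 12 were negative (median -0.18). Prdx2, an abundant red cell peroxidase, read 17.8, 44.0 and 45.0 on the wild-type arrays, against 23.5, 65.6 and 57.7 for the knockouts. Its log2 difference was 0.45, and Ube2l6 differed by -1.05. The larger differences named here were on dim probes, where array medians lie near 1. Kitl read 0.402 to 2.66, Gfi1b 0.506 to 3.07, Rhd 0.551 to 3.18, Add1 0.400 to 3.05 and Ube2l6 0.990 to 5.12. Without wild-type replicate 1 the medians of the heme, membrane and enzyme lists were 0.21, 0.16 and 0.12. That of the erythropoietin and stem cell factor list was 0.01 (7 of 15 negative). That fit kept knockout replicate 1, and the 4 lists read higher in replicate 1 by a median log2 of 0.84, 0.88, 1.08 and 0.41. The change in sign can therefore not be ascribed to wild-type replicate 1 alone. Within replicates 1, 2 and 3 the heme list had medians of -0.11, -0.08 and 0.06, and the membrane list -0.20, 0.24 and 0.04. Those of the enzyme list were -0.05, -0.12 and -0.02, and those of the signalling list -0.04, 0.03 and 0.01. The globin list had a median of -0.14 without wild-type replicate 1. Within replicates 1, 2 and 3 its medians were -0.36, 0.12 and -0.32.

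**Figure D5:**
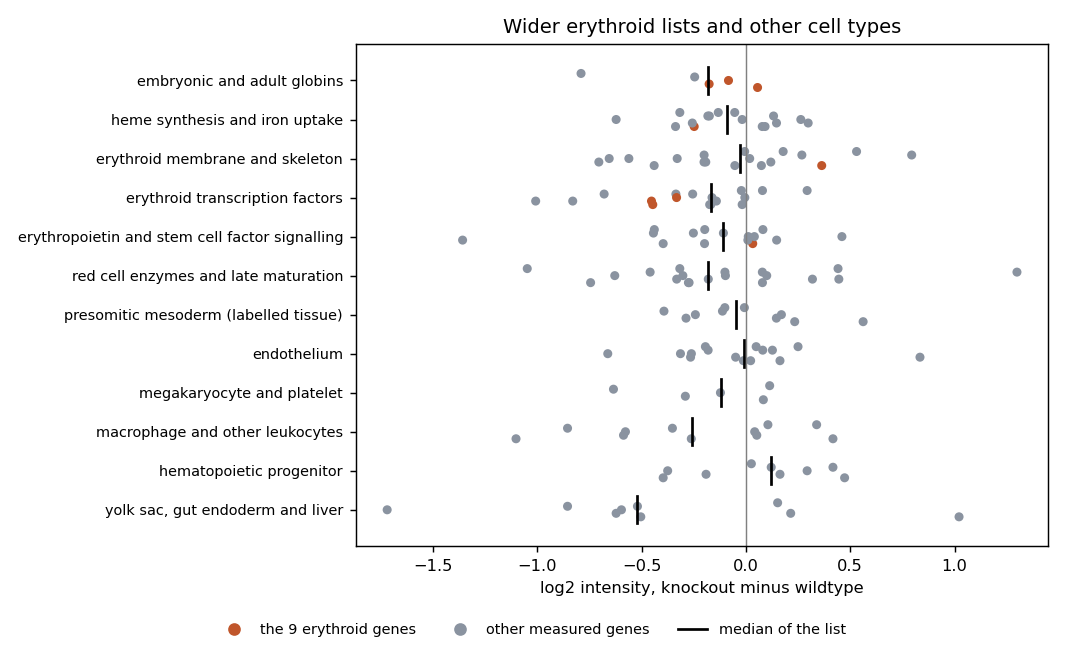
Log2 difference, knockout minus wild type, of each measured gene in the erythroid lists and in the lists of other cell types, 1 point per gene, with the 9 erythroid genes in orange and a black line at each list's median. The points of each list lie on both sides of 0, and 0 of the genes plotted passed the limma test.

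Markers of the other cells that blood or its vessels would bring were read beside these values. Summed over 15 endothelial markers, intensity ranged from 133 to 199 in wild type and from 118 to 196 in the knockout, with 8 of 15 differences negative and a median of -0.01. Their list moved with the replicate number as Klf1 and Epor did, with 11 of 15 called by the F test and 10 of these higher in replicate 1, where 27.8% of all probes and 46.8% of those above the median level were called. Without an intensity trend that test called 1396 probes in all. Within the replicate 1 pair 8 of the 15 were lower in the knockout, against 7 of the 9 erythroid genes. The sums of 5 platelet markers ranged from 53.8 to 80.5 and from 62.9 to 68.1, and 4 of 5 were lower within replicate 1. The platelet chemokine gene Pf4 read 56.0, 34.0 and 35.2 on the wild-type arrays, against 40.7, 45.2 and 43.4 for the knockouts, so it was lower within replicate 1 and higher within replicates 2 and 3 (overall difference 0.08). The sums of 11 leukocyte markers ranged from 50.3 to 69.4 and from 47.3 to 72.8, and 9 of 11 were lower within replicate 1. A linear sum weighs bright probes most, and need not speak for a whole list. Adgre1 read 30.2 to 54.8 among the leukocyte markers, and Pf4 was bright among those of platelets. Kdr read 47.9 to 96.1 among the endothelial markers, and Meis1 57.5 to 150 among the progenitor markers. Of 10 presomitic markers 5 were lower within replicate 1, with a median of 0.01 in that pair, and their sums ranged from 1514 to 1792 (wild type) and from 1598 to 1741 (knockout). The sums of 9 progenitor markers ranged from 108 to 165 and from 123 to 176, with 5 of 9 lower within replicate 1. Those of 9 yolk sac, gut and liver markers ranged from 17.4 to 28.0 and from 14.3 to 22.8. Within replicate 1, 7 of these 9 were lower, as many as of the 9 erythroid genes, and their medians were -0.49, -0.72 and 0.32 in the 3 pairs and -0.52 over all arrays. No marker in any list was at 0, since the lowest value in the data is 0.0261, but Ptprc, the pan-leukocyte gene, and Alb, the liver gene, were at most 0.881 and 1.23. The part of these other cells in the erythroid readings was not tested.

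The genes whose course over the 6 arrays was most like that of the erythroid list were sought among 8315 other genes above the scaled level of 1 on average. The list's course was 0.38, -0.14 and -0.03 (log2 about each gene's mean) on wild-type arrays 1 to 3 and -0.01, -0.06 and -0.15 on knockout arrays 1 to 3, so likeness to it means mostly a high reading on wild-type replicate 1. Each of the 9 genes is itself part of this course, so its own correlation with the course is not independent. Of the 9, Klf1 (0.94), Hbb-y (0.93) and Gata1 (0.89) had the highest Pearson correlation with it. Hba-x (-0.75), Slc4a1 (-0.53) and Hbb-bh1 (-0.14) ran against it. The closest other gene was Tspan33, a tetraspanin of erythroid progenitors (0.991). It read 18.4, 10.4 and 12.5 on the wild-type arrays, against 12.2, 12.0 and 10.7 for the knockouts. It was followed by Col16a1 (0.988), Supt6 (0.988), Mfng (0.947), Fstl4 (0.944), Cldn13 (0.944), Olfr715 (0.936), Csn2 (0.930), Nupr1l (0.916) and Trim56 (0.913). Only Tspan33 of these 10 stands in the erythroid lists, and 14 of the 8315 genes correlated above 0.9. The other listed genes above the scaled level of 1 on average ran from 0.91 (Rhd) to -0.80 (Prdx2). Whether genes outside the lists are expressed in erythroid cells was not tested.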

How the data were processed

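Digoxigenin-labelled cRNA from presomitic mesoderm was measured on one-colour Applied Biosystems microarrays, per the labels. The labels name a human array, but organism and probe annotation are mouse. The authors deposited probe intensities on a linear scale, with array medians near 1 and every value positive. Details of scaling, background correction and filtering: not given in the sources used here. Any background handling affects dim probes most. The 6 arrays were grouped by the labels. Intensities were taken to log2 with no further scaling. The test was that of limma 3.58.1 (R 4.3.3) (a genotype term, moderated with an intensity trend, two-sided p, Benjamini-Hochberg over all 33012 probes, threshold 0.05), and the fits were tested on simulated data. Intervals of 95% come from this fit. The F test of the replicate number comes from the fit with genotype and replicate.

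Deviations from the group means correlated by 0.757, 0.442 and 0.374 within replicate numbers, and the numbers were therefore taken to pair arrays. Between unlike numbers 2 and 3 they were 0.397 and 0.419, so the pairing rests on replicate 1 standing apart. No label says what a number stands for.

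The 9 genes, the lists and the alternatives were chosen with earlier results of these data known. All 9 genes are named, in each list up to 4 other genes with the smallest p and a mean log2 intensity above 0, and the 10 genes most like the list's course. Promoter sequences are from RefSeq, for 7 of the 9 genes. Plots used matplotlib 3.10.9, and tables scipy 1.17.1, numpy 2.4.6 and pandas 2.3.3 under Python 3.11.15.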

Additional observations from a re-analysis of the deposited data

How the results depend on the processing

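No member was called under any of the 17 alternatives, which were the replicate block with and without an intensity trend or quantile normalization, 75th percentile centring, quantile normalization, a pseudocount of 1, leaving out dim probes (8 members tested), no intensity trend, array weights, replicates 2 and 3 alone with and without the block, and leaving out each array. The fit of replicates 2 and 3 with the block was added after the data were seen. With the replicate block the smallest unadjusted p among the 9 genes was 0.0547 (Klf1, limma adjusted p = 0.999), and the block changed no call among the 9. Beyond them it changed the call of Nrarp and Hes5 (limma adjusted p = 0.000420 and 0.00578), and it changed no other call. Counting all probes, 0 were called in the fit reported, 2 with the replicate block, 2 with the block and quantile normalization, 1 with array weights, and 2 with replicates 2 and 3 alone, both without and with the block. Of 152 member values under alternatives, 140 kept their sign. Part of this count was fixed in advance. In this balanced design the block, the intensity trend and leaving out dim probes do not change a member's difference. Adding the block to quantile normalization, or to replicates 2 and 3 alone, likewise repeats the same values. The count therefore overstates how stable the signs were. Leaving out single arrays moved the log2 difference of Hba-x between -0.36 and 0.48, of Hbb-y between -0.40 and 0.12, of Hbb-bh1 between -0.22 and 0.08, of Klf1 between -0.74 and 0.08 and of Epor between -0.25 and 0.46. Without wild-type replicate 1, Hba-x, Hbb-y and Klf1 turned sign. That fit kept knockout replicate 1. With replicates 2 and 3 alone, without and with the block, Hba-x was at 0.06, Hbb-y at -0.07 and Klf1 at -0.18, while Hbb-bh1 was at 0.02. Alas2, Hemgn, Gata1 and Slc4a1 held their sign throughout. The median of the 9 ranged from -0.39 to -0.06 with single arrays left out and was -0.05 in replicates 2 and 3 alone. The F test of the replicate number called 1396 probes and 0 members without an intensity trend, 2 members after quantile normalization and 17677 probes with 75th percentile centring. The cause was not tested. Each member has 1 probe, so averaging several probes of a gene could not be tried. Slc4a1, and Gata1 in part, lie where signal over background limits the reading.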

Other observations

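Lyz2, the lysozyme gene of macrophages and neutrophils, was 1 of 2 among 11 measured leukocyte markers whose genotypes separated, where 3.78% of all probes did. It read 6.54, 4.96 and 6.63 on the wild-type arrays, against 4.94, 2.90 and 4.53 for the knockouts, a log2 difference of -0.58 that did not pass (limma adjusted p = 1.00, and 0.999 with the block). The other was Aif1, a macrophage gene, at 0.833, 1.71 and 1.13 against 0.535, 0.692 and 0.439, named after its values were seen. Its probe is dim, and its limma adjusted p with the block was 0.999. Adgre1, which encodes the macrophage antigen F4/80, read 30.2, 39.7 and 48.3 against 31.4, 54.8 and 37.5 (0.05).

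The peroxidase gene Prdx2 had positive differences in all 3 replicate pairs, at 0.40, 0.58 and 0.36, where 13.2% of all probes did. In its list of 19 genes, 4 were positive in all 3 pairs and 5 negative in all 3. Like Hba-x, it was lower on both replicate 1 arrays than on the other 4, as were 34.4% of all probes. The limma adjusted p between genotypes was 1.00, and 0.999 with the block (unadjusted 0.00565).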
